A study of Mus musculus with 24 samples.

Results

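DNA methylation in mouse embryonic stem cells (mESCs) is set, copied and removed by a small group of enzymes and their partners, and 9 of the genes that encode them were followed here: Dnmt3a, Dnmt3b, Dnmt3l, Dnmt1, Uhrf1, Tet1, Tet2, Tdg and Zfp57. They were taken by symbol, as a list drawn up with earlier results of these data known, from the 24594 genes of the count table, and all 9 were among the 15682 genes with enough reads to be tested. RNA-seq had been made from mESCs of 129S6/SvEvTac background, untreated and kept in serum with leukemia inhibitory factor on gelatin, in which single subunits of ISWI chromatin remodelers were deleted with CRISPR–Cas9. The 24 libraries hold 11 of wild-type (WT) cells and 13 of deletion lines, in batches A to E that each have their own WT libraries: batch A holds WT (n = 2), Rsf1Δ (n = 2) and WstfΔ (n = 2), batch B holds WT (n = 2) and Tip5Δ (n = 2), batch C holds WT (n = 2) and BptfΔ (n = 2), batch D holds WT (n = 3) and the libraries labelled Cecr2Δ (n = 3), and batch E holds WT (n = 2) and Acf1Δ (n = 2). Wstf, Tip5 and Acf1 are other names of Baz1b, Baz2a and Baz1a. Each line is 1 selected clone, and Acf1 was targeted in 2 rounds. The p-values here rest on the spread between libraries of the same group, shared over all 24 libraries in 1 fit, and not on that between clones. The labels do not say whether replicates came from separate cultures, though the methods call them independent.

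In mammals, DNMT3A and DNMT3B place methyl groups on unmethylated CpG sites (de novo methylation), and DNMT3L, which has no catalytic activity of its own, binds and stimulates them. UHRF1 recognises hemimethylated CpG sites after replication and brings in DNMT1, which restores the mark on the new strand (maintenance methylation). TET1 and TET2 oxidise 5-methylcytosine, and TDG, a DNA glycosylase, cuts out the most oxidised forms so that repair can put back an unmodified cytosine. ZFP57 binds the methylated copy of imprinted control regions and protects the mark there when the rest of the genome loses methylation. In cultured mESCs the de novo enzymes are low in the naive state and rise as cells move toward the formative state.

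Across the 6 lines, the strongest changes were in the de novo group, and they did not run the same way in every line. Dnmt3a, Dnmt3b and Dnmt3l were all far lower in BptfΔ, Dnmt3b and Dnmt3l were far lower in WstfΔ, Dnmt3l alone was over 2-fold lower in the libraries labelled Cecr2Δ, and Acf1Δ had over 2-fold more Dnmt3a. The maintenance pair Dnmt1 and Uhrf1 moved by less than 0.4 on the log2 scale in all 6 lines. Of the other 4 genes, Tet2 and Zfp57 moved in some lines by less than 2-fold, and no change of Tet1 or Tdg passed the test.

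Depth ran from 13.4 to 36.7 M counted reads per library. The targeted transcript was lower in 4 lines, with log2 changes from -1.72 (Baz1a in Acf1Δ) to -2.40 (Baz1b in WstfΔ), whereas Baz2a in Tip5Δ differed by -0.26 (adjusted p = 0.0533) and Cecr2 was 0.37 higher in the libraries labelled Cecr2Δ (adjusted p = 0.000154). For that reason the libraries of the last line are called by their label throughout. In the paper, western blots detected none of the deleted proteins in their lines, those of Tip5Δ and Cecr2Δ among them. Batch C stands apart from the other batches. RNAs without a poly(A) tail summed to 4430 to 4616 CPM (counts scaled to library size) in its WT and 5447 to 6243 in BptfΔ. In that line 5 of 7 were called higher (median log2 0.41), where 41.6% of all genes were called changed. The same RNAs summed to between 3.89 and 15.01 CPM in all libraries of the other batches. The part of this difference in the BptfΔ values was not tested. The naive pluripotency markers, Pou5f1, Sox2 and Nanog among them, summed to between 3959 and 7321 CPM in every library, with none at 0. In bulk RNA, fewer cells of a type and less RNA per cell cannot be told apart.

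Levels in the libraries below are normalised CPM, scaled by the TMM factors of edgeR, and changes are log2 fold changes of a line against the WT libraries of its own batch, with their standard error (SE). A gene is called changed where the adjusted p of edgeR's quasi-likelihood test is under 0.01 over all genes tested, and a DEG where the change is also over 2-fold.

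**Figure D1:**
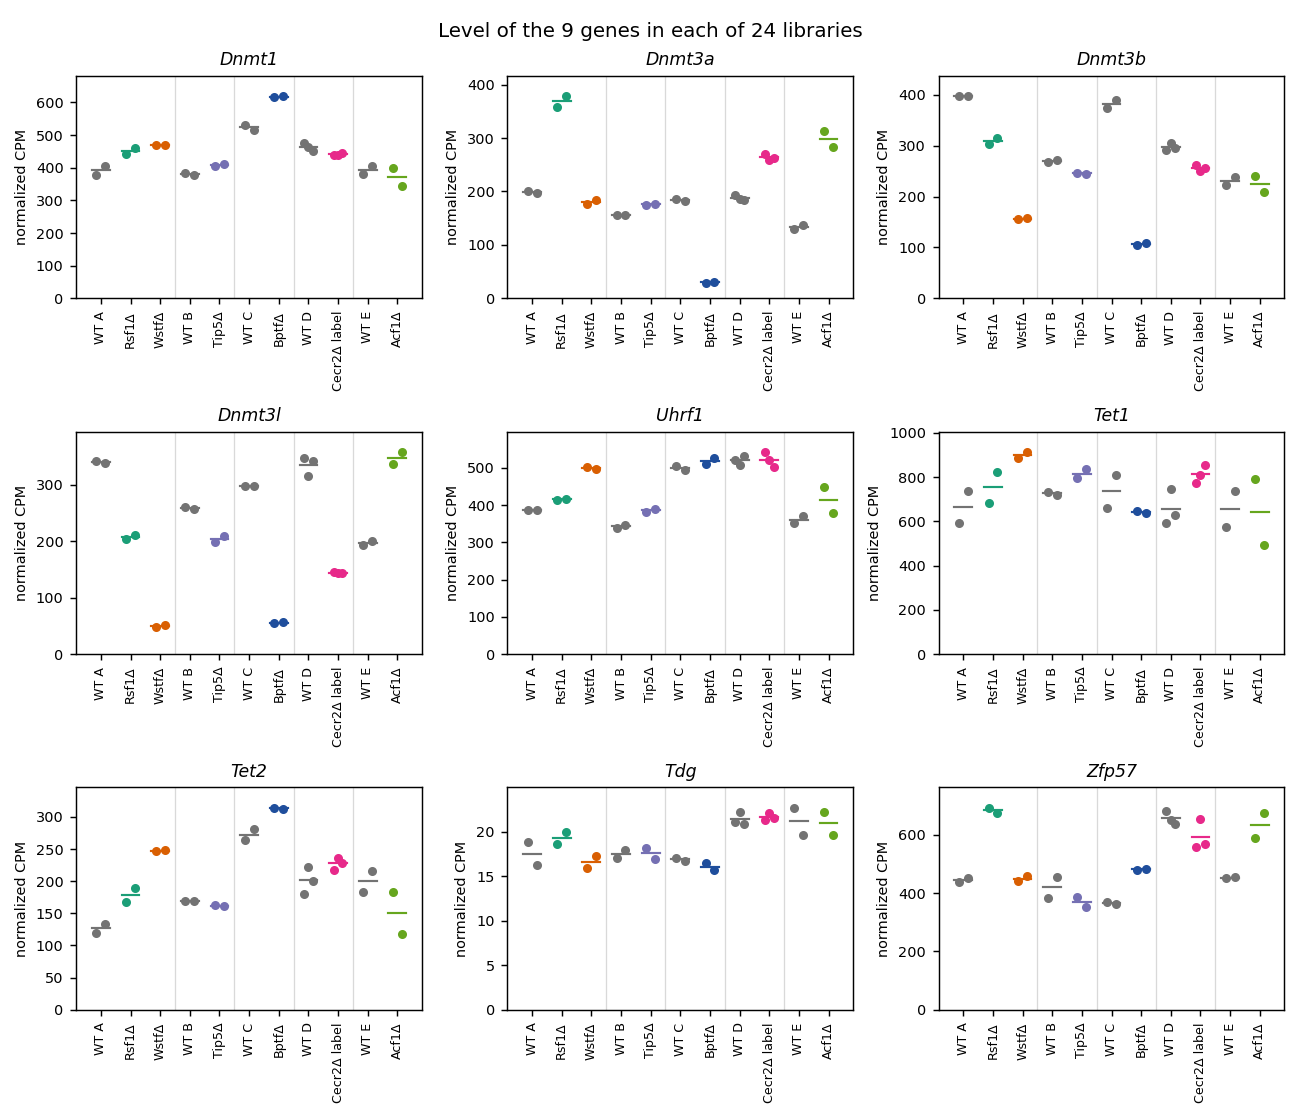
Level of each of the 9 genes in each of the 24 libraries, as normalised CPM on a linear axis that starts at 0, 1 panel per gene. Points are libraries, horizontal bars are group means, vertical lines separate the batches and grey marks WT; the BptfΔ libraries have 28.1 and 31.4 CPM of Dnmt3a where the WT libraries of the same batch have 186.5 and 182.4.

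The promoters of the 3 de novo genes differ in CpG content, and those with the largest changes are shown here with their RefSeq starts on GRCm38.p6. Each window runs from 250 bases before a transcript start to 50 bases after it, on the strand of the gene and 5′ to 3′. All 9 genes were found in the promoter table, with 18 starts in all. The upstream Dnmt3a window is the downstream one of 2 that overlap. Capitals mark matches, on either strand, to the motif letters searched, of which TGCCGC occurs in 11.6% and GGNGGCAG in 12.6% of all 32851 promoter windows. The Dnmt3a start at chr12:3806910-3807209 lies in a window of 47 CpG sites, more than in 98.6% of all windows, whereas its downstream start at chr12:3891494-3891793 has 18. The only Dnmt3b window, chr2:153649199-153649498, has 30 CpG sites, and the Dnmt3l window at the annotated gene start, chr10:78042037-78042336, has 6, against a median of 7 over all windows. The downstream Dnmt3a window and this Dnmt3l window hold no match. Further Dnmt3l starts are not printed: chr10:78049592-78049891 has 4 CpG sites and 1 GGNGGCAG match, and chr10:78055085-78055384 has 3 CpG sites and no match. Which start was used in these cells was not tested.
Dnmt3a upstream start: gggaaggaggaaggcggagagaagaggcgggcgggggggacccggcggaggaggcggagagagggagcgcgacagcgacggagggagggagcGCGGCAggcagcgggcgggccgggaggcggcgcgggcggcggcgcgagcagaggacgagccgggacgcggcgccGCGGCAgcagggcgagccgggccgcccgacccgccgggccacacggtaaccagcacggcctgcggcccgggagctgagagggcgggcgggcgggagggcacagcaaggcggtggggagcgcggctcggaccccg
Dnmt3a downstream start: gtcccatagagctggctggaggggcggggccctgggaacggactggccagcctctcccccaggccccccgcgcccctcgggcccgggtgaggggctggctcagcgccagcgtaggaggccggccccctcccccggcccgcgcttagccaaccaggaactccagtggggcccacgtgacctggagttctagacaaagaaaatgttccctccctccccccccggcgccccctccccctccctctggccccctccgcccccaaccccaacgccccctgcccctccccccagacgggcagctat
Dnmt3b: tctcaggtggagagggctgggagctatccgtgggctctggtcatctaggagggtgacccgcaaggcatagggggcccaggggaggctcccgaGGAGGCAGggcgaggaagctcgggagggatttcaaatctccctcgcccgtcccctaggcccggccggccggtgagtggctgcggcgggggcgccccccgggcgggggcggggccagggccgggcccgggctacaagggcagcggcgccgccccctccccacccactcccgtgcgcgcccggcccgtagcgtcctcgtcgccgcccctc
Dnmt3l: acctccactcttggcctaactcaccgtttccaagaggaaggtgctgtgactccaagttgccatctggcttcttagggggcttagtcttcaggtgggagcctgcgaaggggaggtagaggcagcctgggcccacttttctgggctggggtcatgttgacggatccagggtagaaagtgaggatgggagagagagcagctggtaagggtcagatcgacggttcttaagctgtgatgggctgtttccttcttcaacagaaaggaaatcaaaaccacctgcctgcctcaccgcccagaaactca

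Dnmt3a, on chromosome 12 (chr12:3801559-3914443), encodes the de novo methyltransferase that acts widely over the genome. Its level was 28.1 and 31.4 CPM in the 2 BptfΔ libraries against 186.5 and 182.4 in the WT of batch C, which is 6.20-fold lower (log2 -2.63, SE 0.07, adjusted p = 2.32e-21). In Acf1Δ it was 313.1 and 284.0 CPM against 130.5 and 138.1 in the WT of batch E, a rise of 1.15 on the log2 scale (SE 0.06, adjusted p = 5.57e-14). The BptfΔ libraries thus lie below, and the Acf1Δ libraries above, each of the 11 WT libraries, which span 130.5 to 201.7 CPM. Rsf1Δ also had more Dnmt3a, at 358.3 and 378.7 CPM against 201.7 and 197.7 in the WT of batch A (log2 0.88, SE 0.06, adjusted p = 3.12e-12). The libraries labelled Cecr2Δ followed with 269.4, 259.5 and 262.3 CPM against 193.1, 185.5 and 183.7 (log2 0.49, SE 0.05, adjusted p = 5.67e-09). These 3 lines are above the range of all WT libraries without overlap, but only Acf1Δ is past 2-fold. With no batch term this turned, with log2 1.09 in Rsf1Δ and 0.78 in Acf1Δ. In WstfΔ the libraries had 176.9 and 183.9 CPM (log2 -0.15, adjusted p = 0.0453) and in Tip5Δ 175.4 and 176.2 CPM against 155.4 and 155.8 (log2 0.18, adjusted p = 0.0402), and neither passed the test.

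Dnmt3b, on chromosome 2 (chr2:153649411-153687730), encodes the second de novo enzyme, which is the more abundant of the pair in mESCs. No line had more of it. BptfΔ had 105.5 and 109.0 CPM against 374.2 and 390.5 in the WT of batch C, 3.56-fold lower (log2 -1.83, SE 0.06, adjusted p = 8.36e-19). WstfΔ had 156.6 and 157.1 CPM against 397.9 and 397.0 in the WT of batch A, 2.53-fold lower (log2 -1.34, SE 0.06, adjusted p = 7.05e-16). Both lines lie below every WT library, the lowest of which has 222.6 CPM. Smaller falls passed the test in Rsf1Δ, with 303.6 and 315.8 CPM (log2 -0.36, SE 0.06, adjusted p = 2.19e-05), and in the libraries labelled Cecr2Δ, with 261.9, 249.7 and 255.4 CPM against 292.3, 306.3 and 295.0 (log2 -0.22, SE 0.05, adjusted p = 0.000853). The means of these 2 lines stay within the span of the 11 WT libraries. With no batch term both of these calls were lost (log2 -0.019, adjusted p = 0.972 in Rsf1Δ, and log2 -0.30, adjusted p = 0.184 with the label Cecr2Δ). Tip5Δ (log2 -0.13, adjusted p = 0.128) and Acf1Δ (log2 -0.04, adjusted p = 0.663) did not pass.

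Dnmt3l, on chromosome 10 (chr10:78042287-78063622), encodes the cofactor of both enzymes, and it was the only 1 of the 9 genes called changed in all 6 lines. It was lowest in WstfΔ, with 48.6 and 51.8 CPM against 341.9 and 338.2 in the WT of batch A, 6.77-fold lower (log2 -2.76, SE 0.06, adjusted p = 3.51e-22). BptfΔ had 55.2 and 56.5 CPM against 297.0 and 297.6, 5.32-fold lower (log2 -2.41, SE 0.06, adjusted p = 2.18e-21). The libraries labelled Cecr2Δ had 145.9, 144.2 and 143.1 CPM against 348.0, 315.7 and 341.5, 2.32-fold lower (log2 -1.21, SE 0.05, adjusted p = 3.09e-17). All 3 lines lie below the lowest WT library, which has 193.6 CPM, and in each the groups are far apart. Rsf1Δ, with 204.5 and 211.7 CPM (log2 -0.71, SE 0.06, adjusted p = 1.15e-10), and Tip5Δ, with 198.4 and 209.9 CPM against 260.6 and 257.8 (log2 -0.34, SE 0.06, adjusted p = 5.31e-05), were also lower than their WT. Acf1Δ went the other way, at 336.4 and 358.3 CPM against 193.6 and 200.9 (log2 0.82, SE 0.06, adjusted p = 1.66e-11). The WT of batch E has the least Dnmt3l of the 5 WT groups, 1.72-fold below that of batch A, and the Acf1Δ mean does not exceed the highest WT library. With no batch term, so that a line is set against all 11 WT libraries, the calls in Rsf1Δ (log2 -0.48, adjusted p = 0.130), Tip5Δ (-0.51, adjusted p = 0.0780) and Acf1Δ (0.26, adjusted p = 0.354) were lost. Dnmt3l overlaps Aire, whose mean level was 2.49 CPM.

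**Figure D2:**
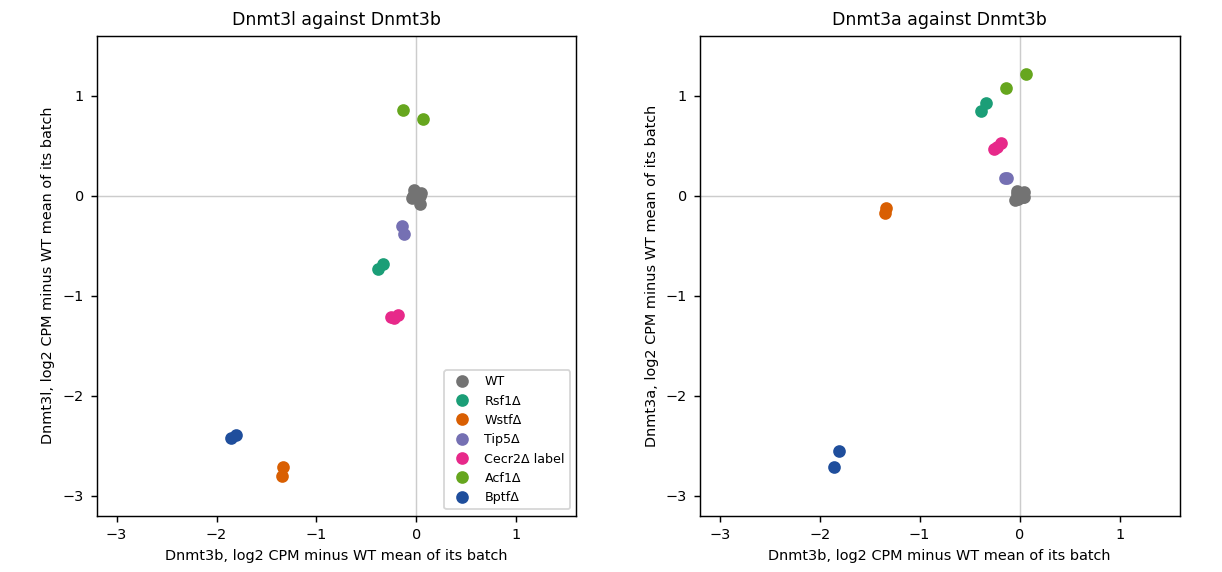
Log2 CPM of Dnmt3l (left) and Dnmt3a (right) against Dnmt3b, each taken minus the mean of the WT libraries of its batch, 1 point per library and both axes on the same scale. BptfΔ is low for all 3 genes, WstfΔ is low for Dnmt3b and Dnmt3l while its Dnmt3a lies near 0, and Rsf1Δ and Acf1Δ have high Dnmt3a without high Dnmt3b.

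Since both enzymes are read in the same library, their ratio per base of transcript does not depend on the scaling between libraries. The log2 ratio of Dnmt3a to Dnmt3b ran from -2.80 to -2.30 in the 11 WT libraries, so Dnmt3b had the more reads per length in each. It was -3.61 and -3.50 in BptfΔ, below that span. Acf1Δ gave -1.32 and -1.26, Rsf1Δ -1.47 and -1.44, WstfΔ -1.53 and -1.48, the libraries labelled Cecr2Δ -1.67 to -1.65, and Tip5Δ -2.20 and -2.18. Thus the libraries of 5 lines lie above the WT span and those of BptfΔ below it. Dnmt3b kept the higher level per length in all 24 libraries, with lengths of 16642 bases for Dnmt3a and 5106 for Dnmt3b. These lengths cover all annotated exons, and which isoforms were expressed is not known from gene counts. In CPM not divided by length, Dnmt3a was above Dnmt3b in Rsf1Δ, WstfΔ, Acf1Δ and the libraries labelled Cecr2Δ. The log2 ratio of Dnmt3l to Dnmt3b was 0.38 to 1.02 in WT, and below 0 in WstfΔ (-0.91 and -0.83), BptfΔ (-0.17 and -0.16) and the libraries labelled Cecr2Δ (-0.07 to -0.02). In Acf1Δ it was 1.26 and 1.55, above the WT span, and in Tip5Δ it was within it. Both Rsf1Δ libraries gave 0.20, also below the WT span. These ratios are given as a description, with no test.

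The 2 maintenance genes carry a motif in common in their promoters, shown here because Dnmt1 and Uhrf1 are the members that moved least among those at high level. TTTCGCGC, letters that E2F proteins of the cell cycle can bind, occurs in 0.323% of the 32851 windows and is present in 1 of 3 Dnmt1 windows and 1 of 2 Uhrf1 windows. Both of these windows hold 33 CpG sites, more than 91.4% of all windows. The Dnmt1 window, chr9:20952574-20952873 on the minus strand, also holds TTTGGCGC, found in 0.514% of windows, and GCGCATGC on both strands, 2 matches that overlap each other and are found in 2.71% of windows. The Uhrf1 window is chr17:56304063-56304362 on the plus strand. CCGGAAGT, the last motif searched and present in 3.89% of windows, matched no window of the 9 genes. A match describes these letters and is no evidence that a factor binds there.
Dnmt1: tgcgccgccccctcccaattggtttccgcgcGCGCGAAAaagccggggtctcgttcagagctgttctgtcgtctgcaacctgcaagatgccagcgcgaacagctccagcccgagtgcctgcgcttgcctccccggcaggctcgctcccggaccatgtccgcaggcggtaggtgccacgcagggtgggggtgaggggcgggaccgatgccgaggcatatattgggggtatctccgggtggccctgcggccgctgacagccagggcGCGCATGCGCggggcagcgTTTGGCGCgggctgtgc
Uhrf1: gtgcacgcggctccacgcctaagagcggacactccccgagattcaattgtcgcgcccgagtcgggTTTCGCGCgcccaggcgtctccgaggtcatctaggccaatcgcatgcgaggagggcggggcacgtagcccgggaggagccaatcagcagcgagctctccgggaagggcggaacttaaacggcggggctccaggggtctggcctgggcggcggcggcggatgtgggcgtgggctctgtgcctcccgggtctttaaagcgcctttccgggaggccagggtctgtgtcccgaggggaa

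Dnmt1, on chromosome 9 (chr9:20907206-20959888), encodes the maintenance methyltransferase. Its level in WT ran from 376.6 to 532.0 CPM over 11 libraries with a median of 406.7. WstfΔ had 469.9 and 469.8 CPM against 379.0 and 406.6 (log2 0.26, SE 0.06, adjusted p = 0.000801), and BptfΔ had 615.7 and 619.7 against 532.0 and 514.8 (log2 0.24, SE 0.06, adjusted p = 0.00131). The BptfΔ libraries are above all WT libraries, of which those of the same batch are the highest, and the WstfΔ libraries are not. Rsf1Δ, with 442.7 and 459.7 CPM, did not pass (log2 0.20, adjusted p = 0.0108) but was called in 5 of 14 alternatives, DESeq2 among them (adjusted p = 0.00294), and the other 3 lines lay between -0.08 and 0.11 on the log2 scale. The call in WstfΔ was lost without WT replicate 1 of batch A (log2 0.21, adjusted p = 0.0272) or with no batch term (log2 0.11, adjusted p = 0.514). That in BptfΔ was lost without WT replicate 2 of batch C (log2 0.22, adjusted p = 0.0195) or without BptfΔ replicate 2 (log2 0.23, adjusted p = 0.0130).

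Uhrf1, on chromosome 17 (chr17:56303337-56323486), changed in WstfΔ, at 502.2 and 495.9 CPM against 386.8 and 385.6 (log2 0.37, SE 0.06, adjusted p = 1.80e-05). The WstfΔ libraries lie above their own WT but inside the span of all 11 WT libraries, 338.4 to 531.9 CPM. In Acf1Δ the libraries had 449.0 and 379.1 CPM against 351.5 and 370.4 (log2 0.20, SE 0.06, adjusted p = 0.0104), and the value passed the test without Acf1Δ replicate 2 (log2 0.32, adjusted p = 0.000130) and was 0.072 without Acf1Δ replicate 1 (adjusted p = 0.345). With no batch term the WstfΔ call was lost (log2 0.21, adjusted p = 0.353). In the other 4 lines the difference was between 0.01 and 0.17 on the log2 scale and did not pass. Genes of S phase and replication, fixed as a list of 26 of which Pcna, Mcm2 and Rrm2 are members, were called higher in 9 cases and lower in 2 in WstfΔ (median log2 0.14), where 34.7% of all genes were called, and higher in 12 in Acf1Δ (median 0.14), where 31.8% were. BptfΔ had 5 higher and 5 lower (median 0.01, background 41.6%), Rsf1Δ 9 higher (0.13, background 20.6%) and Tip5Δ 2 higher (0.05, background 9.07%). With the label Cecr2Δ 1 was higher and 6 were lower (-0.08, background 18.4%). Whether the cell cycle has a part in the levels of Uhrf1 and Dnmt1 was not tested.

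**Figure D3:**
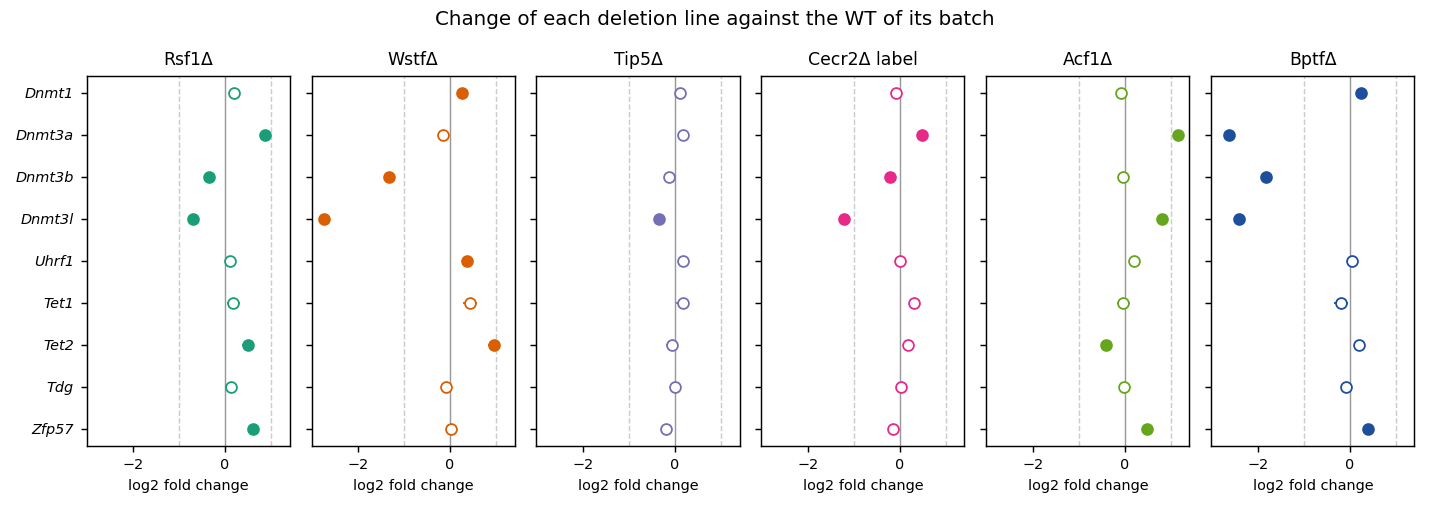
Log2 fold change of the 9 genes in each line against the WT of its batch, with horizontal bars for the SE that are mostly hidden by the points. Filled points are called changed (adjusted p under 0.01), open points are not, the solid line marks no change and the dashed lines mark 2-fold; the points past the dashed lines are Dnmt3a in Acf1Δ and BptfΔ, Dnmt3b in WstfΔ and BptfΔ, and Dnmt3l in WstfΔ, BptfΔ and the libraries labelled Cecr2Δ.

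Tet1, on chromosome 10 (chr10:62804570-62887469), encodes the TET dioxygenase with the highest level in mESCs. It had 887.6 and 914.6 CPM in WstfΔ against 590.7 and 739.4 in the WT of batch A (log2 0.44, SE 0.15, adjusted p = 0.0169). The libraries labelled Cecr2Δ had 771.7, 810.1 and 856.4 CPM against 590.9, 748.2 and 627.6 (log2 0.31, SE 0.12, adjusted p = 0.0537). In both, every line library was above every WT library of its batch, yet neither passed the test. Without WT replicate 2 of batch A the WstfΔ value passed (log2 0.61, adjusted p = 0.00923), as it did with no filter and with the line and its WT fitted alone, and without WT replicate 1 it was 0.28 (adjusted p = 0.219). Over all 6 lines edgeR called 0 changes of Tet1, with 2 at an unadjusted p under 0.05, and DESeq2 called 0. The SE of Tet1 is larger than that of Dnmt3a or Dnmt1, and its replicates lie further apart: the 2 Acf1Δ libraries had 792.5 and 491.2 CPM.

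Tet2, on chromosome 3 (chr3:133463677-133545136), encodes the second TET enzyme of these cells. WstfΔ had 247.2 and 247.9 CPM against 120.2 and 133.8, a rise of 0.96 on the log2 scale (SE 0.12, adjusted p = 2.92e-07), just short of 2-fold. Rsf1Δ, with the same WT libraries as its reference, had 167.6 and 189.6 CPM (log2 0.49, SE 0.12, adjusted p = 0.00241). Both lines lie above their own WT without overlap but within the span of all WT libraries, 120.2 to 280.9 CPM. The WT of batch A has the least Tet2 of the 5 WT groups, 2.14-fold below that of batch C. The Rsf1Δ call was lost without WT replicate 1 of batch A (log2 0.42, adjusted p = 0.0473) or without Rsf1Δ replicate 2 (log2 0.40, adjusted p = 0.0484). In Acf1Δ the libraries had 182.7 and 118.2 CPM against 182.7 and 216.5 (log2 -0.41, SE 0.12, adjusted p = 0.00685). That call was lost without Acf1Δ replicate 2 (log2 -0.13, adjusted p = 0.342) or without WT replicate 2 of batch E (log2 -0.29, adjusted p = 0.111). It was called in 8 of 14 alternatives, and not by DESeq2 (log2 -0.41, adjusted p = 0.0220), without batch C (adjusted p = 0.0136), with the line and its WT fitted alone (adjusted p = 0.0314) or with no batch term (log2 -0.37, adjusted p = 0.338). With no batch term the WstfΔ call was lost too (log2 0.35, adjusted p = 0.273), and the Rsf1Δ value turned to -0.12. BptfΔ had 314.4 and 311.8 CPM against 263.6 and 280.9 (log2 0.20, adjusted p = 0.158), and its mean was above all 11 WT libraries. Over 13 alternatives its log2 value ran from 0.16 to 0.69, and it was called in 3.

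Tet1 and Tet2 have long transcripts, of 15457 and 11775 bases in the table, and their spread between replicates moved in most groups with gene length in the library. For each library the median deviation from its group was taken over long genes (10000 bases or more) minus that over short genes (under 2000 bases). This difference was 0.24 in Acf1Δ replicate 1, where Tet1 stood 0.35 and Tet2 0.31 above the mean of the 2 libraries on the log2 scale, and -0.24 in replicate 2. It was 0.10 in WT replicate 2 of batch D, where Tet1 stood 0.20 and Tet2 0.15 above the mean of its group. In WstfΔ the length difference was 0.0028 and -0.0028, and Tet1 stood -0.02 and 0.02 from the mean. Tip5Δ also went the other way for Tet1, with -0.03 in the library whose length difference was 0.02. So did replicate 2 with the label Cecr2Δ for Tet1 (-0.0034 at 0.025) and WT replicate 3 of batch D for Tet2 (0.0049 at -0.050). In a group of 2 libraries the deviations mirror each other, so such a group gives 1 comparison. Dnmt3a is longer than either, with 16642 bases in the table. Its log2 value in Acf1Δ ran from 1.08 to 1.22 when each replicate was left out in turn. Whether this length trend has a part in the differences of Tet1, Tet2 or Dnmt3a between lines and WT was not tested.

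**Figure D4:**
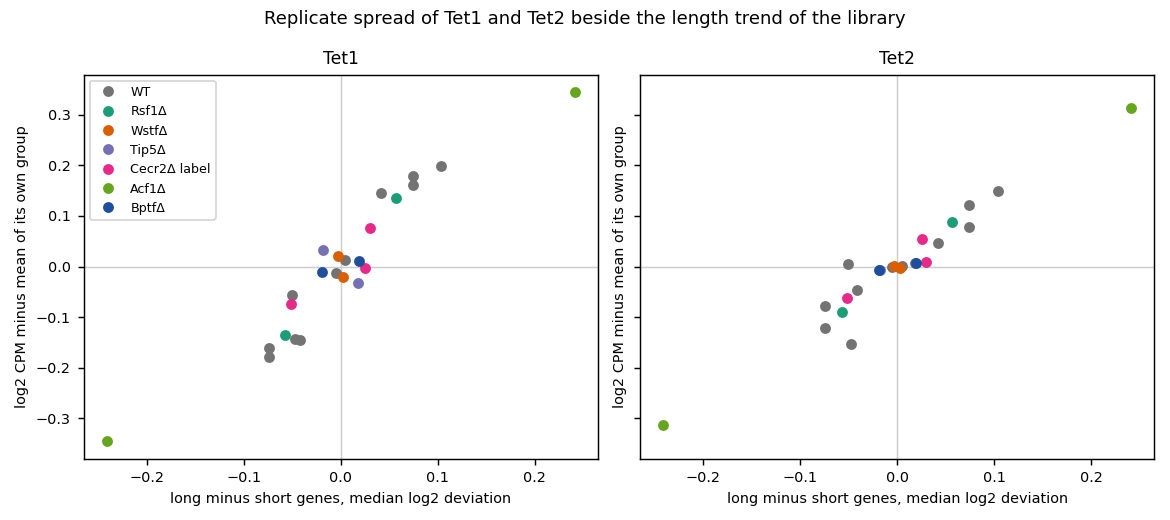
Deviation of Tet1 (left) and Tet2 (right) in each library from the mean of its own group, in log2 CPM, against the median deviation of long minus short genes in the same library. Each of the 24 points is 1 library, and the 2 Acf1Δ libraries lie at both ends, at 0.24 and -0.24. In groups of 2 libraries the points mirror each other.

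Tdg, on chromosome 10 (chr10:82629814-82650799), had the lowest level of the 9 genes, between 15.7 and 22.7 CPM in all 24 libraries. Its log2 differences lay between -0.08 and 0.13, and edgeR called 0 of 6, with 0 at an unadjusted p under 0.05 and 0 by DESeq2. The SE of these differences was 0.07 to 0.10. The value of Tdg is uncertain because the transcribed pseudogene Tdg-ps2 was counted at nearly the same level, 15.2 to 22.3 CPM, and rose and fell with Tdg over the libraries (Pearson's r = 0.989, n = 24). How reads that match both copies were counted is not given in the sources used here.

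Zfp57, on chromosome 17 (chr17:37001163-37010729), encodes the zinc finger protein that guards imprinted control regions. It was called higher in 3 lines. Rsf1Δ had 693.2 and 675.4 CPM against 438.5 and 451.2 (log2 0.62, SE 0.08, adjusted p = 3.31e-07). Acf1Δ had 590.6 and 674.1 CPM against 452.6 and 454.1 (log2 0.48, SE 0.08, adjusted p = 1.40e-05), and BptfΔ had 480.4 and 482.9 against 367.9 and 362.5 (log2 0.40, SE 0.08, adjusted p = 8.91e-05). In each of these lines both libraries lie above their own WT, but only the Rsf1Δ mean is above all 11 WT libraries, since the WT of batch D reaches 681.0 CPM. The other 3 lines did not pass and lay between -0.18 and 0.01. All 3 calls were lost with no batch term, with log2 0.50 (adjusted p = 0.141) in Rsf1Δ, 0.38 (adjusted p = 0.217) in Acf1Δ and -0.011 (adjusted p = 0.968) in BptfΔ. In Rsf1Δ the rise of Zfp57 stood beside a fall of Dnmt3l, and in Acf1Δ beside a rise of it.

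Read by line and against all genes, the counts of members called changed were as follows. In Rsf1Δ 5 of 9 were changed, where 20.6% of all genes tested were, and 0 were DEGs by edgeR, by DESeq2 or at an unadjusted p under 0.05, where 5.91% of all genes were. In WstfΔ 5 were changed (background 34.7%) and 2 were DEGs (10.4%). In Tip5Δ 1 was changed (9.07%) and 0 were DEGs by edgeR, by DESeq2 or at an unadjusted p under 0.05 (2.72%). More members passed in Tip5Δ where the line was fitted alone beside its WT, as given in the last section. For the libraries labelled Cecr2Δ the numbers were 3 changed (18.4%) and 1 DEG (3.11%), for Acf1Δ 4 changed (31.8%) and 1 DEG (4.45%), and for BptfΔ 5 changed (41.6%) and 3 DEGs (13.8%). The median log2 difference of the 9 members was between -0.07 and 0.18 in the 6 lines, and that of all genes between -0.03 and 0.01. With 9 genes, shares of this kind differ from the background by few members, and nothing particular to the group is read from them. Of the 54 pairs of gene and line, 23 were changed and 7 were DEGs, and all 7 DEGs lie outside the span of the 11 WT libraries. By contrast, 12 of the 23 changes left the line mean within that span. The median change of the genes within 5 Mb of each member was between -0.09 and 0.27 in all 54 pairs.

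A change called in 1 line and not in another need not differ between them, so the lines were also compared with each other in the same fit, over 15 pairs of lines. In 27 of 135 cases the responses of a gene differed by over 2-fold with an adjusted p under 0.01: 11 for Dnmt3l, 7 for Dnmt3a, 7 for Dnmt3b and 2 for Tet2. BptfΔ differed in this way for 3 members from Rsf1Δ, Tip5Δ, the libraries labelled Cecr2Δ and Acf1Δ, where 12.2%, 11.7%, 13.2% and 15.7% of all genes did, and for 1 member, Dnmt3a, from WstfΔ (8.09%). WstfΔ differed for 4 members from Acf1Δ (12.3%), for 3 from Tip5Δ (8.14%), for 2 from the libraries labelled Cecr2Δ (7.89%) and for 2 from Rsf1Δ (7.79%), the line with which it shares its WT libraries. Acf1Δ differed for 1 member, Dnmt3l, from each of Rsf1Δ (3.93%), Tip5Δ (5.64%) and the libraries labelled Cecr2Δ (7.43%). No member differed by over 2-fold between Rsf1Δ and Tip5Δ (3.65%), Rsf1Δ and the libraries labelled Cecr2Δ (4.2%) or Tip5Δ and the libraries labelled Cecr2Δ (2.42%), where edgeR found 3, 4 and 2 members with a difference of any size and 5, 4 and 4 at an unadjusted p under 0.05. The largest of the 27 differences was that of Dnmt3a between Acf1Δ and BptfΔ, 3.78 on the log2 scale.

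In WT cells the members were ordered by level per kilobase of transcript, the scale on which genes can be compared. Zfp57 was highest with 128.1 CPM per kilobase, followed by Uhrf1 (101.1), Dnmt3l (97.1), Dnmt3b (61.5), Dnmt1 (58.8), Tet1 (44.3), Tet2 (16.5), Dnmt3a (10.4) and Tdg (4.32). Of the 8 neighbouring pairs in that order, 6 differed in an exact two-sided sign-flip permutation test over the 11 libraries (threshold here an adjusted p of 0.05), with adjusted p between 0.00195 and 0.0169. Uhrf1 and Dnmt3l (adjusted p = 0.465) and Dnmt3b and Dnmt1 (adjusted p = 0.589) did not differ beyond their spread. The WT libraries of 1 batch are not independent, and over the 5 batch means the test cannot go below 0.0625. The order also turned between batches. In the WT of batch C, Zfp57 (97.2 and 95.7) lay below Uhrf1 (118.4 and 116.1) and Dnmt3l (99.4 and 99.6). In that of batch A, Tet2 (10.2 and 11.4) lay below Dnmt3a (12.1 and 11.9). The place of Tet2 depends on its length: with the exons of GENCODE, 16870 bases rather than 11775, Tet2 and Dnmt3a no longer differed (adjusted p = 0.483). That of Dnmt3a likewise rests on a length of 16642 bases, which covers all its annotated exons. Between the 5 WT groups 8 of 9 members differed (all but Tet1, adjusted p = 0.617), where 73.1% of all genes did. The highest group was 1.12-fold above the lowest for Tet1 and 2.14-fold for Tet2.

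**Figure D5:**
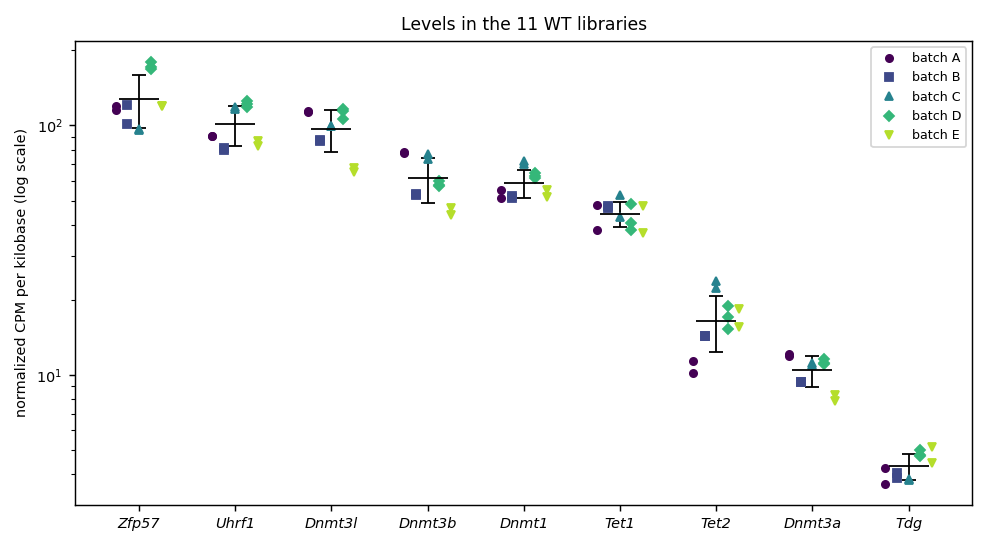
Level of the 9 genes in the 11 WT libraries as normalised CPM per kilobase of transcript on a log axis, in falling order of the mean. Symbols mark the batch, and horizontal bars with whiskers give the mean and SD (n = 11), from 128.1 for Zfp57 to 4.32 for Tdg.

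For each member, the genes whose level relative to WT ran most like it over the 24 libraries were sought among 9480 genes with a mean of at least 10 CPM. The points share the WT mean of their batch, and groups of libraries, not single libraries, set these correlations, which are given as a description. Dnmt3a ran with Copg1 (r = 0.979) and Smyd5 (0.977), both on chromosome 6, whose changes in BptfΔ were -1.01 and -1.13 on the log2 scale and in Acf1Δ 0.31 and 0.58. Dnmt3b ran with Epha1 (0.979) and Gphn (0.978), and Dnmt3l with Rbmx (0.968). For the other members the nearest were Ccdc88c (0.940) for Dnmt1, Prkci (0.903) for Uhrf1, Prr14l (0.943) for Tet1, Dhtkd1 (0.963) for Tet2 and Sars2 (0.942) for Zfp57. Among the members, Dnmt3b and Dnmt3l were most alike (r = 0.892), Dnmt3a followed Dnmt3b at 0.735 and Dnmt3l at 0.569, and Dnmt3l and Tet2 ran in opposite directions (-0.780).

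The partners of these enzymes were called in both directions. They were counted in lists of genes other than the members, apart from Zfp57 among the methyl-CpG readers, and a gene such as Dppa3 stands in several of them. The counts below stand beside all-gene shares called of 20.6% in Rsf1Δ, 34.7% in WstfΔ, 9.07% in Tip5Δ, 18.4% with the label Cecr2Δ, 31.8% in Acf1Δ and 41.6% in BptfΔ, and nothing particular to a list is read from them. Of 14 partners of de novo methylation, 3 were higher and 4 lower in WstfΔ (median log2 -0.02, background 34.7%), and 2 were higher and 6 lower in BptfΔ (-0.11, background 41.6%). Morc1, which takes part in silencing of transposons, was over 2-fold lower in 3 lines, with log2 changes of -1.25 in WstfΔ, -1.87 in Tip5Δ and -1.28 in BptfΔ. Prdm14, a repressor of the Dnmt3 genes in mESCs that is named here after its values were seen, was higher in BptfΔ (1.66), WstfΔ (0.86), Rsf1Δ (0.61) and the libraries labelled Cecr2Δ (0.55), and did not pass in Tip5Δ (0.13) or Acf1Δ (-0.16). Of 14 partners of maintenance methylation, 6 were higher and 2 lower in Acf1Δ (median 0.12, background 31.8%), and 1 to 5 passed in each other line (backgrounds 9.07% to 41.6%). Dppa3, whose protein keeps UHRF1 from chromatin, changed by -3.14 in WstfΔ, -4.02 in BptfΔ, -2.15 in Acf1Δ and -1.13 in Tip5Δ on the log2 scale.

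Of 20 tested genes of active demethylation and base excision repair, 7 were higher and 2 lower in WstfΔ (median 0.19, background 34.7%) and 5 higher and 4 lower in BptfΔ (-0.06, background 41.6%). Gadd45g, a stress-response gene with a debated place in demethylation, was a DEG in 4 lines, with changes of -6.58 for BptfΔ, -2.74 for WstfΔ, -1.59 for Tip5Δ and -1.57 for the label Cecr2Δ. Idh2, whose enzyme makes the 2-oxoglutarate that TET proteins need, was higher in WstfΔ (1.097) and BptfΔ (1.44). Imprint maintenance partners (13 tested), methyl-CpG readers (9, Zfp57 among them) and genes of methyl donor metabolism (12) had medians between -0.19 and 0.25 in all 6 lines. In Acf1Δ (background 31.8%) 3 and 4 imprint partners, 2 and 3 readers and 6 and 2 genes of methyl donor metabolism were higher and lower. In BptfΔ (background 41.6%) 2 imprint partners were lower, 4 and 1 readers and 3 and 5 genes of methyl donor metabolism were higher and lower, and in WstfΔ (background 34.7%) 3 imprint partners were lower, with 1 and 2 readers and 2 and 4 genes of methyl donor metabolism. Rsf1Δ (background 20.6%) had 4 and 2 genes of methyl donor metabolism, and in the remaining lines at most 3 genes of each of these lists passed.

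Lists of germline genes silenced by DNA methylation and of imprinted genes were counted beside the members. The germline list of 20 also holds Zfp42, which stands among the naive pluripotency markers below as well. Of the 20 genes in this list, 11 were higher in Rsf1Δ (median log2 0.41, background 20.6%), 4 higher and 10 lower in WstfΔ (-0.43, background 34.7%), and 1 higher and 14 lower in BptfΔ (-1.12, background 41.6%), the line with the least Dnmt3a and Dnmt3b. Dazl, a germ cell RNA-binding protein, changed by 1.604 in Rsf1Δ and by -1.67 in BptfΔ on the log2 scale. Tip5Δ had 1 higher and 6 lower (background 9.07%), Acf1Δ had 3 and 7 (31.8%), and the libraries labelled Cecr2Δ had 2 and 5 (18.4%). Of 27 imprinted genes tested, 3 were higher and 15 lower in WstfΔ (median -0.62), 4 and 14 in BptfΔ (-0.54), 5 and 9 in Rsf1Δ, 6 and 10 in Acf1Δ, 8 and 1 in Tip5Δ and 6 and 5 for the label Cecr2Δ, with the same backgrounds as the list before. Igf2, a fetal growth factor expressed from the paternal copy, was a DEG in 5 lines, with changes from -2.74 in WstfΔ to -1.45 in Acf1Δ.

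Markers of cell states were also called in both directions, and their counts stand beside the same all-gene shares, from 9.07% in Tip5Δ to 34.7% in WstfΔ and 41.6% in BptfΔ. Of 15 naive pluripotency markers, 12 were higher and 1 lower in WstfΔ (median 0.68) and 12 and 2 in BptfΔ (0.86), against 10 higher in Rsf1Δ (0.33) and 1 and 1 in Tip5Δ (0.01). Acf1Δ had 4 higher and 5 lower (-0.07), and the label Cecr2Δ 6 and 3 (0.19). Of the 9 formative and primed markers that are not members of the group described here, 1 was higher and 7 lower both in WstfΔ (median -1.84) and in BptfΔ (-2.24). Acf1Δ, in which Dnmt3a and Dnmt3l were higher, had 2 higher and 5 lower (-0.35), and Rsf1Δ, in which Dnmt3a was higher, had 3 and 4 (-0.23). In Tip5Δ their median was 0.02. In the libraries labelled Cecr2Δ 4 were higher and 1 lower, while Dnmt3l was over 2-fold lower. The primitive endoderm markers, Gata4, Foxa2 and Sox17 among them, were lower, 12 of 12, in BptfΔ, Rsf1Δ, Tip5Δ and those libraries, and 10 of 12 were lower in WstfΔ. In Acf1Δ 3 were higher and 1 lower. Their summed level was 4894 to 5435 CPM in the WT of batch A against 1644 to 1698 in Rsf1Δ and 1532 to 1557 in WstfΔ, 5101 to 5153 in the WT of batch B against 1107 to 1125 in Tip5Δ, and 2610 to 2706 in the WT of batch C against 724 to 749 in BptfΔ. It was 1474 to 1589 in the WT of batch D against 469 to 491 in the libraries labelled Cecr2Δ, and 3061 to 3497 in the WT of batch E against 3062 to 3766 in Acf1Δ, with no marker at 0 in any group. Side by side, the median log2 change of these markers and that of Dnmt3l were -3.37 and -2.41 in BptfΔ, -2.31 and -0.34 in Tip5Δ, -2.00 and -1.21 with the label Cecr2Δ, -1.54 and -2.76 in WstfΔ, -1.31 and -0.71 in Rsf1Δ, and 0.21 and 0.82 in Acf1Δ. In the same order of lines, Dnmt3a changed by -2.63, 0.18, 0.49, -0.15, 0.88 and 1.15, and Dnmt3b by -1.83, -0.13, -0.22, -1.34, -0.36 and -0.04. Of 7 trophectoderm markers tested, 3 to 5 were lower in each line, and of 5 fibroblast markers 3 were lower in each line but the one labelled Cecr2Δ (median log2 -0.58). The median of 8 mesoderm markers ran from -1.03 in WstfΔ to 0.28 in BptfΔ, that of 5 neuroectoderm markers from -0.55 in WstfΔ to 0.22 in Tip5Δ, and that of 4 markers of 2-cell-like cells from -4.65 in BptfΔ to 1.01 in the libraries labelled Cecr2Δ. The last list summed to only 0.059 to 5.18 CPM, with 5 of 7 genes at 0 in BptfΔ, so its medians lie near the floor of the counts. The part of cell composition in the levels of Dnmt3a, Dnmt3b and Dnmt3l was not tested.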

How the data were processed

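RNA of 24 mESC libraries was analysed from a table of raw counts per gene. Alignment by the authors was to mm10, using QuasR in spliced mode (the submitters' notes name HISAT2 and bcl2fastq 2.17), and they deposited gene-level counts without normalization, together with the exon width of each gene. The handling of strand and of reads with several matches is not given in the sources used here, and the labels name a stranded mRNA kit where the methods name TruSeq RNA v2. Counts are whole reads, with no molecular identifiers mentioned, and depth was 13.4 to 36.7 M reads per library.

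Groups and batches were taken from the sample labels, and IDs were matched to RefSeq GRCm38.p6, which gave symbols for 24570 of 24594. The 9 members and all lists were chosen with earlier results of these data known. In R 4.3.3 with edgeR 4.0.16, genes were filtered with filterByExpr by genotype, scaled with TMM and fitted by the quasi-likelihood method (legacy form) on batch plus genotype, with the 24 libraries in 1 model, and p-values were adjusted by Benjamini-Hochberg over 15682 genes. Named with values in the text are the 9 members, the targeted genes, at most 2 genes most like each member, at most 3 genes of each list that are DEGs in most lines, and Prdm14; other list genes are named only to say what a list holds. Replicates of a group differed by 1.38 to 20.4 times the sampling noise (15 pairs), so none was taken as the same library, and the spread between replicates, not depth alone, sets the precision of a level. The fit was tested on simulated data. Alternatives were DESeq2 1.42.0, other scalings and filters, no batch term, a replicate block, the line with its own WT, omission of batch C and of each replicate, batch means and GENCODE exon lengths for the order of levels. Promoter sequences are those of RefSeq.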

Additional observations from a re-analysis of the deposited data

Results flagged for a closer look

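Differences between 2 lines in the response of a gene, over 2-fold with an adjusted p of edgeR's quasi-likelihood test under 0.01, were found in 27 of 135 cases, and each is given here as the log2 change of the first line minus that of the second. For Dnmt3a the difference was 1.03 for Rsf1Δ minus WstfΔ and -1.30 for WstfΔ minus Acf1Δ. BptfΔ stood apart from all other lines for this gene, with 3.52 for Rsf1Δ minus BptfΔ, 2.49 for WstfΔ, 2.81 for Tip5Δ, 3.13 for the libraries labelled Cecr2Δ and 3.78 for Acf1Δ. For Dnmt3b, WstfΔ differed by -1.21 from Tip5Δ, by -1.12 from the libraries labelled Cecr2Δ and by -1.31 from Acf1Δ. The same gene gave 1.47 for Rsf1Δ minus BptfΔ, 1.70 for Tip5Δ, 1.61 for the libraries labelled Cecr2Δ and 1.80 for Acf1Δ.

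For Dnmt3l, Rsf1Δ differed by 2.05 from WstfΔ, by -1.52 from Acf1Δ and by 1.70 from BptfΔ. WstfΔ differed by -2.42 from Tip5Δ, by -1.55 from the libraries labelled Cecr2Δ and by -3.58 from Acf1Δ. Tip5Δ differed by -1.16 from Acf1Δ and by 2.07 from BptfΔ. The libraries labelled Cecr2Δ differed by -2.03 from Acf1Δ and by 1.197 from BptfΔ, and Acf1Δ by 3.23 from BptfΔ. For Tet2 the difference was 1.03 for WstfΔ minus Tip5Δ and 1.37 for WstfΔ minus Acf1Δ, the second of which includes the Acf1Δ value whose call is lost without either of 2 libraries. Rsf1Δ and WstfΔ share their WT libraries, so the difference between those 2 lines does not depend on WT, whereas every other pair also compares 2 batches of WT. No group of the labels holds 4 or more libraries, so no test for a single outlying library was made.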

How the results depend on the processing

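The 7 DEGs kept their direction and an adjusted p under 0.01 in all 97 refits. In 96 they stayed over 2-fold; the exception was Dnmt3a in Acf1Δ with no batch term (log2 0.78). Without the batch term a line was compared with all 11 WT libraries, and fewer members were called in some lines, though not in all. Rsf1Δ had 1 (5 in the text), with 1 over 2-fold (0 in the text), and WstfΔ had 2 (5). Tip5Δ had 0 (1), and Acf1Δ had 1 (4), with 0 over 2-fold (1). With no filter 5 members were called in the libraries labelled Cecr2Δ (3 in the text). With each line fitted alone beside its WT, 6 were called in Tip5Δ (1). The cause was not tested. The shares of all genes called in these refits are not given here, so nothing particular to the members is read from these counts. Over the 5 batch means, the order of levels had 0 neighbouring pairs that passed (6 over the libraries), a design whose smallest p is 0.0625. With GENCODE lengths 5 passed. Over 54 pairs of gene and line the newer quasi-likelihood form and the replicate block kept every call, with 5 members changed in BptfΔ under the block as without it; same-numbered libraries did not deviate together (9 distinct correlations, since libraries of a pair mirror each other, from -0.07 to 0.05). Omission of batch C could not be applied to BptfΔ.

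Some directions turned. With no batch term the values were, on the log2 scale, -0.052 for Uhrf1 and -0.12 for Tet2 in Rsf1Δ, 0.055 for Dnmt3a and -0.11 for Zfp57 in WstfΔ, -0.083 for Dnmt1, -0.16 for Uhrf1 and -0.12 for Tdg in Tip5Δ, -0.057 for Uhrf1 and 0.13 for Tdg in Acf1Δ, -0.011 for Zfp57 in BptfΔ, and 0.024 for Dnmt1 and 0.29 for Zfp57 in the libraries labelled Cecr2Δ. Of these, only Tet2 in Rsf1Δ and Zfp57 in BptfΔ were called in the text. Uhrf1 in the libraries labelled Cecr2Δ gave -0.0059 with RLE factors, -0.0018 with library size only, -0.0024 with the stricter filter, -0.0097 without batch C, -0.0014 with only its own WT and -0.0060 with DESeq2. Tdg in Tip5Δ gave -0.041 with library size only, -0.010 with the stricter filter and -0.0054 with only its own WT. Tdg in Acf1Δ gave 0.0021 with no filter, 0.0022 without batch C and 0.0025 with only its own WT, and Zfp57 in WstfΔ -0.0015 with the stricter filter. When each replicate was left out in turn, so that in groups of 2 the lone library is assumed to vary like the others, the values ran from -0.18 to 0.029 for Tdg and from -0.012 to 0.045 for Zfp57 in WstfΔ, from -0.050 to 0.053 for Tdg in Tip5Δ, and from -0.023 to 0.033 for Uhrf1 in the libraries labelled Cecr2Δ. For Acf1Δ they ran from -0.12 to 0.088 for Tdg, from -0.14 to 0.064 for Dnmt3b, from -0.41 to 0.28 for Tet1 and from -0.19 to 0.018 for Dnmt1.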
